A study of Homo sapiens with 4 samples.

Results

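The genes described are 10 contractile genes of the smooth muscle type: the actins ACTA2 and ACTG2, the calponins CNN1 and CNN2, transgelin (TAGLN), the regulatory myosin light chain MYL9, the tropomyosins TPM1 and TPM2, caldesmon (CALD1) and the adaptor TGFB1I1. Every probe set that the platform annotation ties to 1 of these genes alone was taken, which gave 34 of the 54613 probe sets on the array and of the 41091 with 1 gene. Each probe set is shown apart, because those of 1 gene do not always move together. RNA came from U87TR-Da cells, made from U87MG, an established line from a human glioblastoma, so that doxycycline controls the nuclear factor DACH1. It was hybridised to 4 arrays of the whole transcriptome, 1 each for DACH1-induced cells in Neurobasal without serum (supplied with the growth factors EGF and bFGF and with the supplements B-27 and N-2), DACH1-silenced cells in that medium, DACH1-induced cells in DMEM with 10% FBS, and DACH1-silenced cells in DMEM with FBS. The labels give the same exposure, 1 µg/mL doxycycline for 72 h, for all 4 cultures, the silenced ones included, and name a single derived line with no repeat culture.

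Smooth muscle cells shorten when myosin, switched on by phosphorylation of its regulatory light chain, pulls on actin filaments. Calponin, transgelin, tropomyosin and caldesmon bind along those filaments and tune that pull. Most of these genes are also expressed in fibroblast-like and tumour cells that build stress fibres, and many are known targets of serum response factor (SRF) with its actin-sensing cofactors MRTFA and MRTFB, and of TGF-beta signalling.

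The DACH1 label was read first. The brightest of its 3 probe sets gave 875.1 on the induced and 32.5 on the silenced array labelled serum-free, and 4431 on the induced and 126.0 on the silenced array labelled serum, so by this probe set both induced arrays were the higher of their pair. The other DACH1 probe sets did not show induction: 1 stayed at or under 8.3 on all arrays, below the floor used here, and 1 read 2.9 induced and 12.1 silenced labelled serum-free, and 24.7 and 23.1 labelled serum. The medium labels were set against 10 sterol synthesis genes, which are known to be raised in cells cut off from lipoprotein. In arrays labelled serum-free their median log2 difference was -0.46, against 0.05 over all probe sets fitted, with LSS called higher (2.19-fold, limma adjusted p 0.0225) and 0 called lower. HMGCS1 (-0.98), IDI1 (-0.83) and MSMO1 (-0.63) had estimates below 0 that did not pass. IDI1 was called lower with a pseudocount (limma adjusted p 0.0330), with a floor of 50 (0.0164), with all arrays above the median (0.0318) and with a trend in the variance prior (0.0102). INSIG1 and FDPS were called lower with the floor of 50 (0.0274 and 0.0479) and with the trend (0.0203 and 0.0374). Apart from LSS, these calls ran opposite to that known response. Whether the medium labels are right could not be settled here, and every direction by medium below rests on the labels. The vimentin gene VIM (6065 to 9278) and CD44 (4214 to 5666), known of this line, were bright on every array, SPARC was 6.27-fold higher labelled serum-free, NES was dim (19.6 to 35.8), and CDKN2A, which the line is known to lack, read 20.1 to 32.8. All 3 astrocyte markers stayed at or under 7.1, all 4 skeletal muscle markers at or under 3.1 and both immune markers at or under 11.1. The 3 endothelial markers were at or under 35.7. The 5 pericyte and fibroblast markers split, with LUM and PDGFRB called higher and DCN and RGS5 lower in arrays labelled serum-free, and summed to 1909 and 2108 there, against 1097 on the induced and 2480 on the silenced array labelled serum. Their part in the results was not tested.

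Signals are MAS5 signals on a linear scale, in arbitrary units set by 1 scaling factor per array, and the median over all probe sets lay between 15.7 and 19.3. A floor of 10.9, which 40% of the signals lie under, replaced lower values before log2. A probe set entered the limma fit of medium and DACH1 state if at least 2 arrays reached 17.2, the median of all signals. Of the 34 probe sets, 26 entered, from 9 genes, and 8 did not, among them both of ACTG2. With 1 array per condition, the error of a probe set is the part of its signal that medium and DACH1 state do not explain by adding up. This error has 1 degree of freedom, and limma draws it towards a value shared by all fitted probe sets, weighted as 3.98 degrees of freedom. Standard errors and intervals below thus rest mostly on that shared value. The p-values rest on this error over the 4 arrays, not on a spread between repeat cultures of 1 condition. A medium difference that depended on DACH1 state would count as error. Fewer cells of a type cannot be told apart from less RNA per cell.

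**Figure D1:**
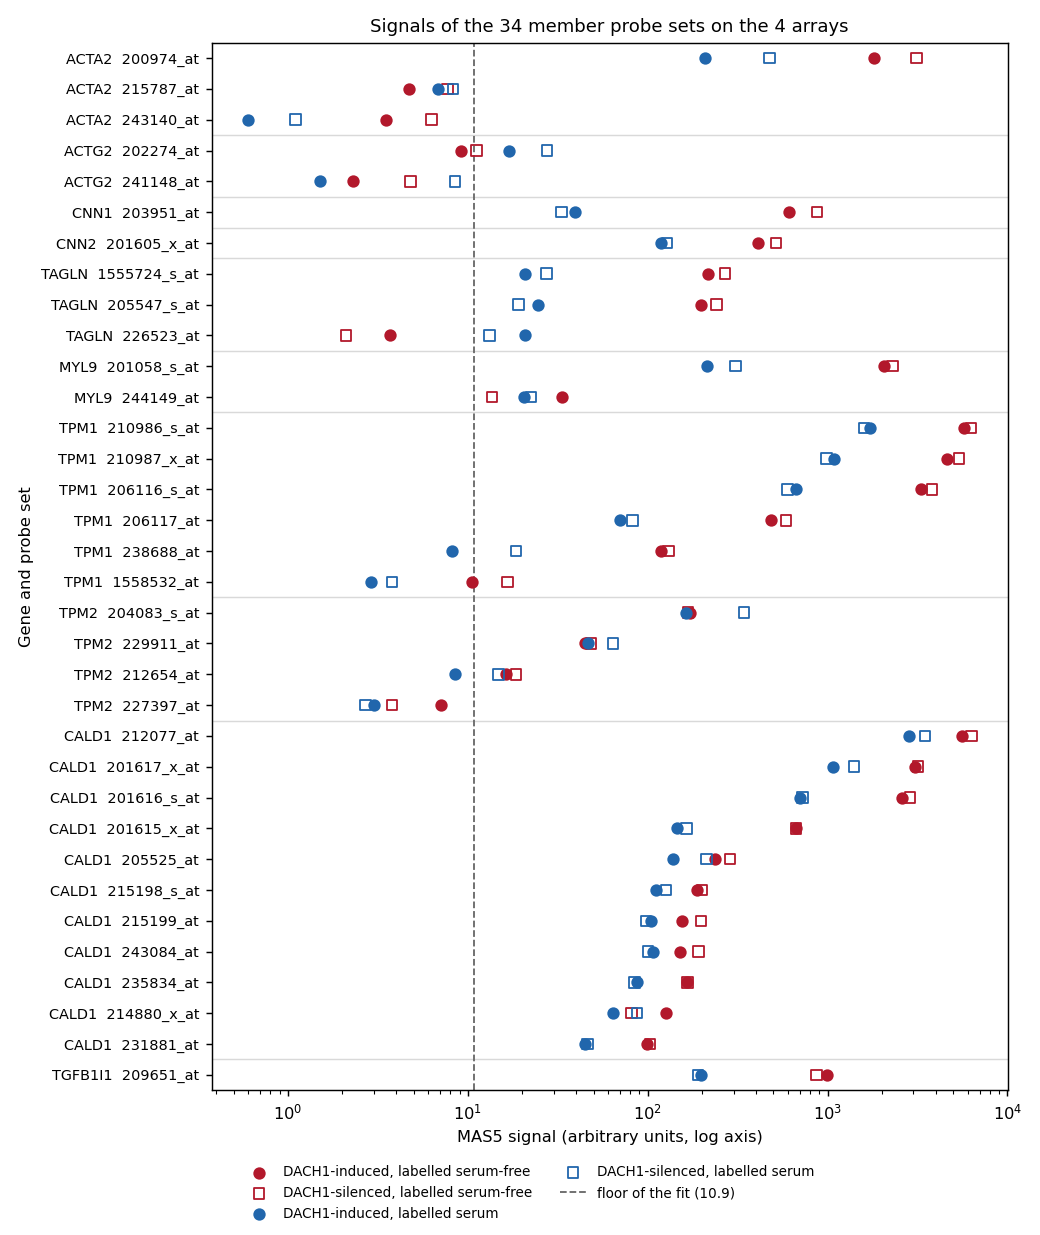
Signal of each of the 34 probe sets (rows, grouped by gene) on the 4 arrays, on a log axis, with the floor of 10.9 as a dashed line; filled circles are DACH1-induced and open squares DACH1-silenced cultures, red labelled serum-free and blue labelled serum. CNN1, both bright TAGLN probe sets, ACTA2 200974_at, MYL9 201058_s_at and the fitted TPM1 probe sets lie far to the right in red. Both fitted TPM2 probe sets overlap between media, and TAGLN 226523_at lies the other way.

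The first question is how these genes differed between the media. In arrays labelled serum-free, 18 of the 26 fitted probe sets were called higher and 0 lower at a limma adjusted p under 0.05, and these 18 came from 8 genes: ACTA2, CNN1, CNN2, TAGLN, MYL9, TPM1, CALD1 and TGFB1I1. Over all 28654 probe sets fitted, 16.3% were called higher and 12.1% lower. These calls depend on the filter on low signals: when all 54613 probe sets were fitted, none of the 18 was called (limma adjusted p 0.124 to 0.245), nor was any other probe set by medium, while the 18 log2 differences were the same. The log2 differences of the 18 ran between 0.91 and 4.33, with adjusted p between 0.00766 and 0.0351 in limma. The median of the 26 was 1.88, against 0.05 over all probe sets fitted. On 22 of the 26, both arrays labelled serum-free read above both labelled serum, which 37.7% of all fitted probe sets did.

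**Figure D2:**
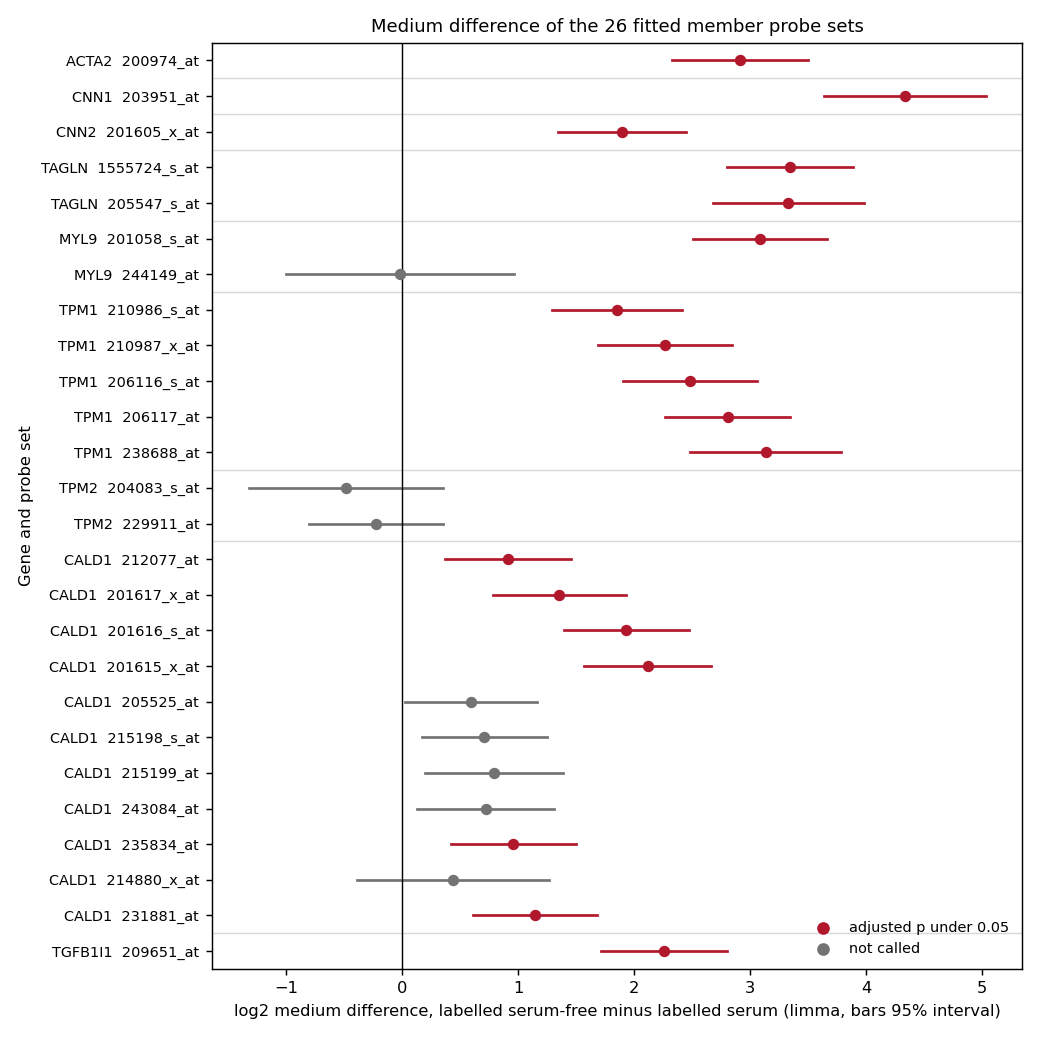
Log2 medium difference (labelled serum-free minus labelled serum) of the 26 fitted probe sets with its 95% interval from limma, grouped by gene; red marks an adjusted p under 0.05 and grey the rest. CNN1 stands highest at 4.33, the 11 CALD1 probe sets spread between 0.44 and 2.12, and both TPM2 probe sets and 1 of MYL9 lie at or below 0.

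ACTA2 rose, while ACTG2 stayed dim. ACTA2, the smooth muscle alpha actin gene, read 1807 on the DACH1-induced and 3113 on the DACH1-silenced array labelled serum-free, against 208.1 and 477.1 on those labelled serum, by probe set 200974_at. Both serum-free readings stood far above both serum readings, a 7.53-fold rise (log2 2.91, SE 0.23, limma adjusted p 0.00771). Its other probe sets, 215787_at and 243140_at, stayed between 0.6 and 8.3, under the floor on every array. ACTG2, the enteric smooth muscle gamma actin gene, was dim: 202274_at read 9.2 on the induced and 11.2 on the silenced array labelled serum-free, against 16.9 and 27.6 on those labelled serum. It was thus low on all 4 arrays and lowest where ACTA2 was high, 2.46-fold lower in silenced cells, a difference of 2 single arrays with no test. None of these readings was above the 20.1 to 32.8 read for CDKN2A, so the direction of ACTG2 is uncertain. Its probe set 241148_at did not exceed 8.5. The coding sequences of these actins are close copies, and where the probes lie on the transcripts was not analysed here.

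The promoters are shown for what they share with the known control by SRF, whose binding motif is called the CArG box. RefSeq windows (GRCh38.p14, 250 bases before to 50 after an annotated start) were held for 8 of the 10 genes, 15 windows in all. None was held for TAGLN or MYL9. Each window was searched on both strands for a CArG box and for a CArG box with 1 G or C among its 6 central letters. A stretch of 10 letters can match only 1 of these forms. Of the 15 windows, 3 held a CArG box, 1 each of ACTG2, CNN2 and TGFB1I1, and 4 held the form with 1 central G or C, from ACTA2, CALD1 and TGFB1I1. The 2 TGFB1I1 windows among these 4 overlap and hold 1 and the same site. Over all 35116 windows of this length, 1.29% held the first and 6.94% the second. The windows below belong to both actins among the members and to the other genes with a full CArG box, with motif letters in capitals.
ACTA2, chr10:88952724-88953023, minus strand: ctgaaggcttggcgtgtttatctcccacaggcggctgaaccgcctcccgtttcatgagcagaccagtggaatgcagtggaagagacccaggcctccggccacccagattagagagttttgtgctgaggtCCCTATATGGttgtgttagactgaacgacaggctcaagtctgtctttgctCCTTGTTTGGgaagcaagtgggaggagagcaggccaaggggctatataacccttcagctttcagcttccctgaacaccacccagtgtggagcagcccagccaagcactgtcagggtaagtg
ACTG2, chr2:73892758-73893057, plus strand: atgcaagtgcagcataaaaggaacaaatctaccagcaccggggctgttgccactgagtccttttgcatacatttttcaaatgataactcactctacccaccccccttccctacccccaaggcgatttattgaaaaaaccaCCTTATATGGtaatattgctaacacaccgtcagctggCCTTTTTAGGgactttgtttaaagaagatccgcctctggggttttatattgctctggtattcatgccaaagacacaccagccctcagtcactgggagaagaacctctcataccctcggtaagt
CNN2, chr19:1026358-1026657, plus strand: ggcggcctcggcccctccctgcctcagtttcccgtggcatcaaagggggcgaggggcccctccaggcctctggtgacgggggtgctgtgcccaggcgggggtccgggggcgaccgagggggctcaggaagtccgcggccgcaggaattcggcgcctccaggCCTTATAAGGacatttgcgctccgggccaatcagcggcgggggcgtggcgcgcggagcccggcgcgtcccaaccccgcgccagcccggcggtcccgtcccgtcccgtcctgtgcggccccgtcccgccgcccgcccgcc
TGFB1I1, chr16:31472955-31473254, plus strand: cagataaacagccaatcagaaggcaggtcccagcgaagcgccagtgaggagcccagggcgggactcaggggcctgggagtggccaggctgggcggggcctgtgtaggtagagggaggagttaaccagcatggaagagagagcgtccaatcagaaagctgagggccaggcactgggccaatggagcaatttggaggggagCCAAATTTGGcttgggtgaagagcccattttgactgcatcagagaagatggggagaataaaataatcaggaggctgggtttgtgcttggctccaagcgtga

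In ACTA2 the motifs began 121 and 71 bases before the start, each with 1 central G or C, and in ACTG2 110 and 73 bases before it, both full. CNN2 had its motif 89 bases and TGFB1I1 51 bases before the start. Both of these genes rose, while ACTG2, with full motifs too, stayed dim on all arrays. The single window of CNN1, the gene with the largest rise among the members, held neither form, and the same was true of TPM1. A match is a description of these letters and not a site shown to be bound.

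The calponins both rose. CNN1, the basic calponin that marks differentiated smooth muscle, read 606.7 on the DACH1-induced and 874.0 on the DACH1-silenced array labelled serum-free, against 39.4 and 33.2 on those labelled serum. All readings labelled serum-free were over 600 and both labelled serum under 40. The fold was 15.4 in induced and 26.3 in silenced cells, and 20.1 in the fit (log2 4.33, 95% interval 3.63 to 5.03, limma adjusted p 0.00766), and 3.86 on the log2 scale with a floor of 50. Its readings labelled serum lie close to the 20.1 to 32.8 read for CDKN2A, so the size of the fold is uncertain. CNN2, the calponin of many non-muscle cells, read 408.6 and 515.7 labelled serum-free, against 118.2 and 128.0 labelled serum, a 3.73-fold rise (SE of the log2 difference 0.21, limma adjusted p 0.0103). Its 95% interval on the log2 scale, 1.35 to 2.45, lay below that of CNN1.

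Transgelin, a calponin-related actin-bundling protein, has probe sets that disagree. Probe set 1555724_s_at read 217.3 and 268.9 on the induced and silenced arrays labelled serum-free, against 20.7 and 27.4 on those labelled serum. Probe set 205547_s_at read 197.5 and 241.2, against 24.5 and 19.2. Both rose, 10.2-fold and 10.1-fold (limma adjusted p 0.00766 and 0.00771), and their serum readings lie no higher than those of CDKN2A. With a floor of 50 and at least 2 arrays at 100, the log2 differences were 2.27 and 2.13, in place of 3.34 and 3.33. The remaining probe set, 226523_at, went the other way: 3.7 and 2.1 labelled serum-free, against 20.8 and 13.2 labelled serum. It reached 17.2 on 1 array only, so it had no test, and in induced cells it was at least 1.91-fold lower. All its readings were under 21, below those of the other TAGLN probe sets labelled serum-free, and which transcript it reports was not analysed here. None was above the 20.1 to 32.8 read for CDKN2A, so its direction is uncertain.

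MYL9 encodes the regulatory light chain that myosin light chain kinase phosphorylates. Its bright probe set 201058_s_at read 2067 on the induced and 2292 on the silenced array labelled serum-free, against 214.7 and 306.9 on those labelled serum, with no overlap. That was an 8.48-fold rise (log2 3.08, SE 0.22, limma adjusted p 0.0077). The dim probe set 244149_at read 33.2 and 13.6, against 20.5 and 22.5, so the serum-free arrays lay on either side of the serum arrays (log2 -0.02, limma adjusted p 0.981).

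The tropomyosins, coiled proteins that lie along the actin filament, split by gene. All 5 fitted probe sets of TPM1 rose. The brightest, 210986_s_at, read 5715 and 6270 on the induced and silenced arrays labelled serum-free, against 1726 and 1590 on those labelled serum, a 3.61-fold rise (limma adjusted p 0.0108). Its neighbours 210987_x_at and 206116_s_at rose 4.81-fold (log2 2.27) and by 2.49 on the log2 scale. Probe set 206117_at read 483.0 and 587.9, against 70.4 and 82.2, a rise of 2.81 on the log2 scale. Probe set 238688_at read 118.8 and 130.7, against 8.2 and 18.5, and rose 8.78-fold with its lowest reading set to the floor. The probe sets thus agreed in direction, and their folds ran between 3.61 and 8.78. For 238688_at the log2 difference was 1.32 with a floor of 50, in place of 3.13. The gene makes many isoforms from alternative exons, and the place of each probe set was not analysed here. The dim probe set 1558532_at, left out of the fit, read 10.6 and 16.6, against 2.9 and 3.8.

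TPM2, the beta tropomyosin gene, did not follow. Its brightest probe set, 204083_s_at, read 171.6 on the induced and 167.1 on the silenced array labelled serum-free, against 162.9 and 343.9 on those labelled serum. The silenced array labelled serum stood alone above the other 3, and the estimate was -0.48 (95% interval -1.32 to 0.36, limma adjusted p 0.310). Probe set 229911_at read 45.1 and 48.3, against 46.3 and 64.0, with an estimate of -0.22 (-0.80 to 0.36, adjusted p 0.492). These intervals lie below those of all 5 TPM1 probe sets, whose lower ends lay between 1.30 and 2.49. The remaining probe sets, 212654_at and 227397_at, did not exceed 18.5.

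CALD1 encodes caldesmon, which links actin and myosin and exists in a heavy smooth muscle and a light non-muscle form. It has 11 of the 34 probe sets, all 11 were fitted, and all had estimates above 0. Of these, 6 were called higher. The largest difference was that of 201615_x_at, with 667.7 and 668.8 on the induced and silenced arrays labelled serum-free, against 144.8 and 164.0 on those labelled serum (4.34-fold, limma adjusted p 0.00922). Probe set 201616_s_at rose 3.82-fold (2596 and 2867, against 702.2 and 726.8) and 201617_x_at rose 2.56-fold (3072 and 3179, against 1066 and 1399). The brightest, 212077_at, read 5586 and 6295, against 2851 and 3489, a smaller rise of 1.88-fold (adjusted p 0.0351 in limma), lost with quantile normalization (adjusted p 0.0717) and with no floor (0.0604). Its log2 interval, 0.37 to 1.45, lies below that of 201615_x_at, 1.57 to 2.66, so probe sets of this 1 gene gave unequal differences. Probe sets 231881_at and 235834_at rose 2.21-fold and 1.94-fold, and 235834_at was not called with no floor (limma adjusted p 0.0558).

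The other 5 probe sets of CALD1 had estimates between 0.44 and 0.80 and did not pass. In 4 of these, 205525_at, 215198_s_at, 215199_at and 243084_at, both arrays labelled serum-free read above both labelled serum, with adjusted p between 0.0588 and 0.104 in limma. Probe set 214880_x_at overlapped, with 126.5 and 81.3 labelled serum-free, against 63.9 and 87.3 labelled serum.

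TGFB1I1, also called HIC-5, is a focal adhesion adaptor known as a TGF-beta-induced coactivator. It read 991.5 on the induced and 870.5 on the silenced array labelled serum-free, against 197.0 and 190.6 on those labelled serum. Within each medium the readings lay close together, and between media the rise was 4.79-fold (log2 2.26, SE 0.21, limma adjusted p 0.00869).

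**Figure D3:**
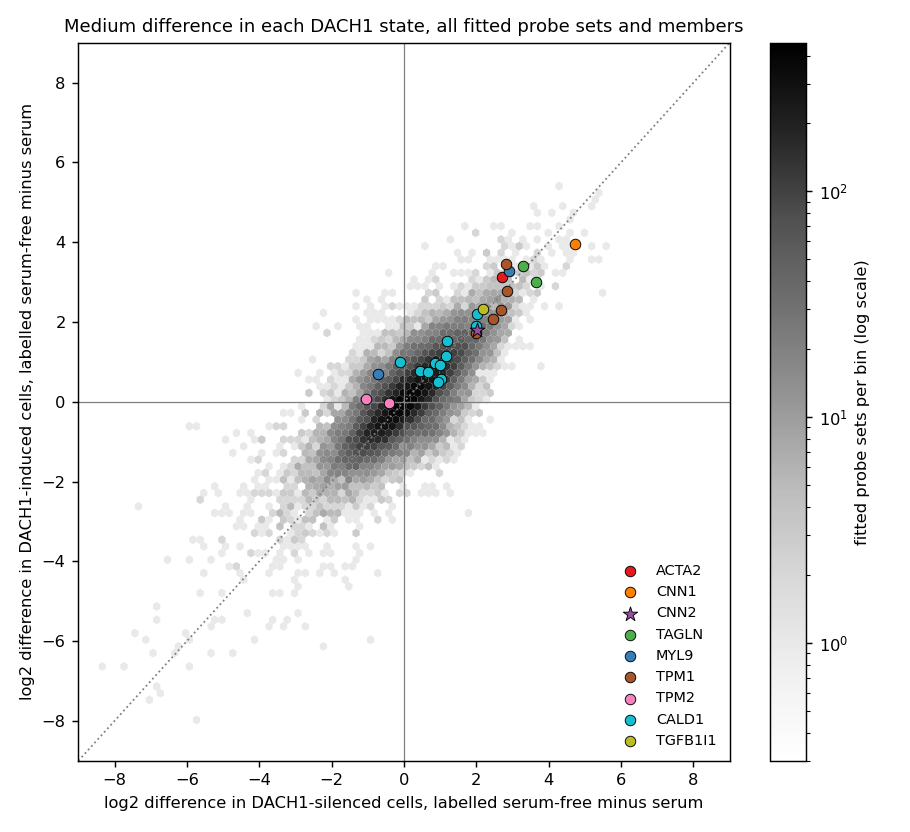
Log2 medium difference in DACH1-silenced cells (horizontal) and in DACH1-induced cells (vertical); grey bins count all 28654 fitted probe sets on a log scale, coloured points are member probe sets and the dotted line marks equality. CNN1 lies at 3.94 in induced and 4.72 in silenced cells, TPM2 204083_s_at at 0.08 and -1.04, and most members lie in the upper right.

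The medium difference was then read in each DACH1 state apart, from 2 single arrays with no test. In induced cells 16 of 27 probe sets compared were at least 2-fold higher and 0 lower labelled serum-free, where 14.3% and 9.80% of all compared were. In silenced cells 17 of 28 were at least 2-fold higher and 2 lower, against 15.4% and 11.5% of all. The 2 lower were ACTG2 202274_at and TPM2 204083_s_at. The medians of the members were 1.73 in induced and 1.58 in silenced cells, against 0.05 and 0.10 over all probe sets compared.

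The second question is how these genes differed between DACH1-induced and DACH1-silenced cells. In the limma fit 0 of the 26 probe sets were called, as were 0 of all 28654 (0% called in either direction). DACH1 itself, 30.8-fold higher in induced cells, did not pass either (adjusted p 0.111 in limma), so the absence of calls says little about the members. Without adjustment 1598 of all probe sets (5.58%) had a p under 0.05, and 1 of the 26 did, ACTA2 200974_at. This probe set was lower on the induced array in both media, 1.72-fold labelled serum-free (1807 induced, 3113 silenced) and 2.29-fold labelled serum (208.1 induced, 477.1 silenced). Its estimate was -0.99 (95% interval -1.58 to -0.40, limma adjusted p 0.834), so it failed the correction. Of the 26 estimates 21 lay below 0, with a median of -0.13, against -0.01 over all probe sets fitted, and the other estimates of the fit ran up to 0.58.

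**Figure D4:**
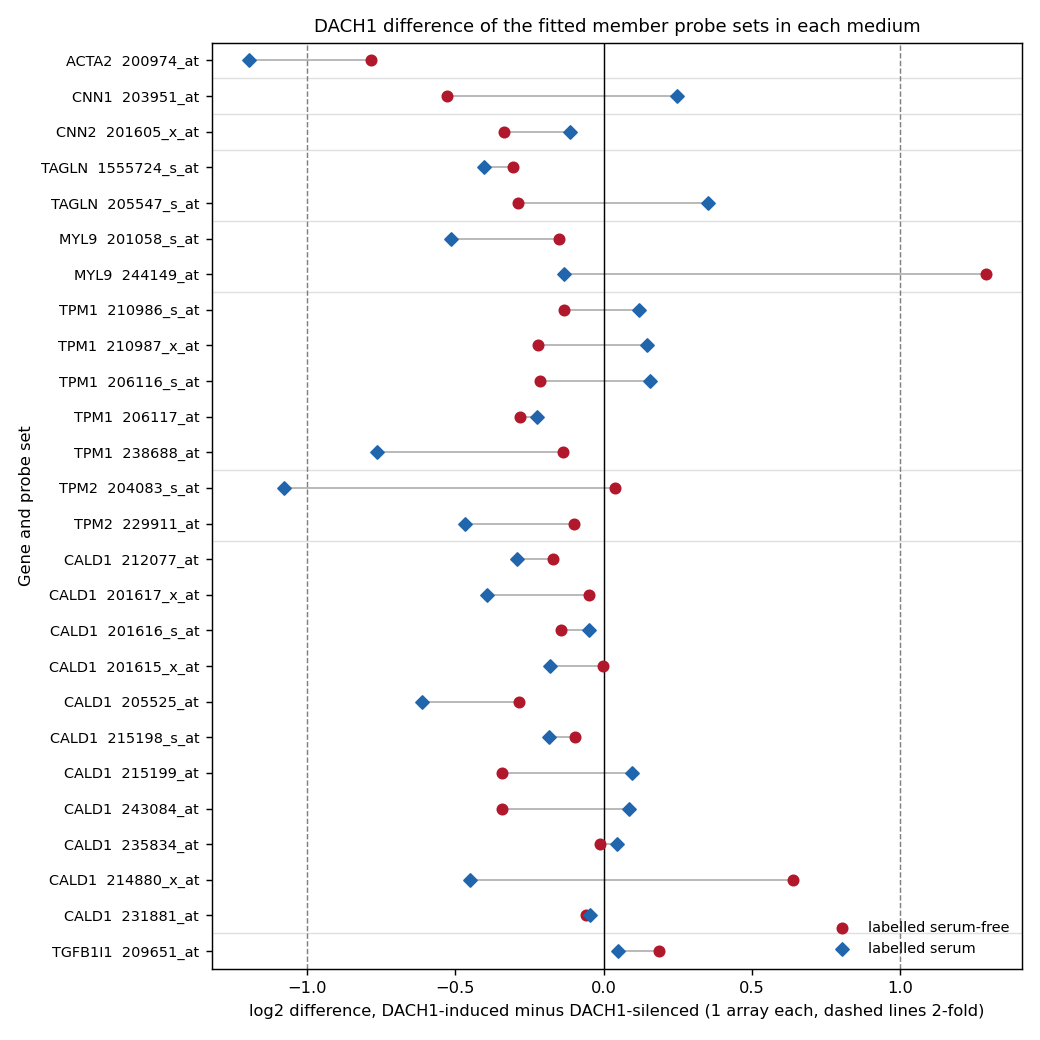
Log2 difference between DACH1-induced and DACH1-silenced cells for the 26 fitted probe sets, red circles labelled serum-free and blue diamonds labelled serum, each from 1 array per state, with dashed lines at 2-fold. Most points lie within 2-fold; ACTA2 lies left of 0 in both media, MYL9 244149_at passes 2-fold labelled serum-free, and TPM2 204083_s_at and ACTA2 pass it labelled serum.

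In arrays labelled serum-free, 23 of the 27 probe sets compared read lower and 4 higher with DACH1 induced, and 52.5% of all probe sets compared read lower. Only MYL9 244149_at passed 2-fold, higher with 33.2 and 13.6, while 0 were 2-fold lower, where 1.30% of all were higher and 2.91% lower. In arrays labelled serum, 18 of 28 read lower and 10 higher, and 51.3% of all read lower. There ACTA2 200974_at and TPM2 204083_s_at (162.9 induced, 343.9 silenced, 2.11-fold) were at least 2-fold lower and 0 were higher, where 4.96% of all were lower and 2.85% higher. CNN1 read 1.44-fold lower with DACH1 labelled serum-free (606.7 and 874.0) and 1.19-fold higher labelled serum (39.4 and 33.2). TGFB1I1 was above its silenced array in both media, by 1.14-fold and 1.03-fold.

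How far the DACH1 difference depended on the medium has no error, since no array is left. The difference of differences, serum-free label minus serum label on the log2 scale, ran between -0.77 (CNN1) and 1.42 (MYL9 244149_at). It was at least 1 in size for 3 of the 26, the others being TPM2 204083_s_at (1.12) and CALD1 214880_x_at (1.09), while 11% of all fitted probe sets reached that size.

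Related genes were read by 1 probe set per gene, the brightest, and their counts stand beside the 16.3% higher and 12.1% lower of all fitted probe sets, or 15.4% and 12.7% in a fit with 1 probe set per gene. Among 14 paralogs of the members, 11 were fitted, 4 rose in arrays labelled serum-free and 0 fell, with a median of 0.74. The rises were in the cardiac actin gene ACTC1 (3.24-fold, 83.7 and 88.4, against 24.7 and 28.5), the tropomyosin gene TPM4 (2.52-fold), the calponin gene CNN3 (1.96-fold) and the cytoplasmic actin gene ACTB (1.84-fold, limma adjusted p 0.0406, and 0.103 with quantile normalization). TAGLN2 (0.69), MYL6 (0.74), MYL12A (0.24) and MYL12B (0.20), non-muscle relatives of TAGLN and the myosin light chains, had log2 estimates that did not pass. MYL6 was called higher with a pseudocount (limma adjusted p 0.0441) and with a floor of 50 (0.0235). It was also called higher with all arrays above the median (0.0443) and with a trend in the variance prior (0.0169). TAGLN3, a neuronal transgelin gene, read 15.7 and 23.3, against 81.1 and 21.4, and did not pass either.

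Of 9 late smooth muscle markers, 4 were fitted and 0 were called in either direction in limma, 0 also at an unadjusted p under 0.05. The actin-binding SMTN read 321.6 and 334.4 labelled serum-free, against 592.9 and 321.3 labelled serum, and SYNPO2 stayed between 23.8 and 31.5. DES, the muscle intermediate filament gene, had an estimate of 0.31 and PDE5A one of 0.08. MYH11, the smooth muscle myosin heavy chain, read 11.3 to 16.9 on the 4 arrays, and MYOCD, the smooth muscle cofactor of SRF, 6.2 to 13.3, named here after their values were seen. Among SRF and its cofactors, 6 of 7 were fitted, with 2 lower and 0 higher: SRF read 52.7 and 45.3, against 88.1 and 117.1 (2.08-fold lower, limma adjusted p 0.0377), and ELK3, a ternary complex factor, was 2.29-fold lower. ELK4 (-0.94) and MRTFA (0.31) did not pass. ELK4 was called lower with the pseudocount (limma adjusted p 0.0346) and with the floor of 50 (0.0179). It was also called lower with all arrays above the median (0.0309) and with the trend (0.0174). The list's median was -0.52.

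Of 16 stress fibre and adhesion genes, 14 were fitted, 5 rose and 0 fell, with a median of 0.72. The actin crosslinker ACTN4 rose 5.01-fold (2362 and 2502, against 867.3 and 271.1), PDLIM7 2.54-fold, the vinculin gene VCL 2.29-fold and the non-muscle myosin gene MYH9 2.14-fold, and PALLD was the remaining one. Of 9 genes of myosin phosphorylation, 8 were fitted, 1 rose and 1 fell, which is near the share over all probe sets. MYLK, the myosin light chain kinase that acts on MYL9, rose 3.75-fold (2785 and 3081, against 586.9 and 1042, limma adjusted p 0.0132). RND3, an inhibitor of RHOA signalling, fell 2.12-fold (2741 and 2872, against 5421 and 6525). RHOA (0.57), ROCK2 (0.52) and its paralog ROCK1 (-0.52) did not pass. With the floor of 50, RHOA and ROCK2 were called higher (limma adjusted p 0.0433 and 0.0485). With the trend in the variance prior, RHOA was called higher (0.0336) and ROCK1 lower (0.0417). With no floor, the calls of CNN3, ACTB, SRF, ELK3, ACTN4, PDLIM7 and MYH9 were lost, at adjusted p between 0.0522 and 0.0682.

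**Figure D5:**
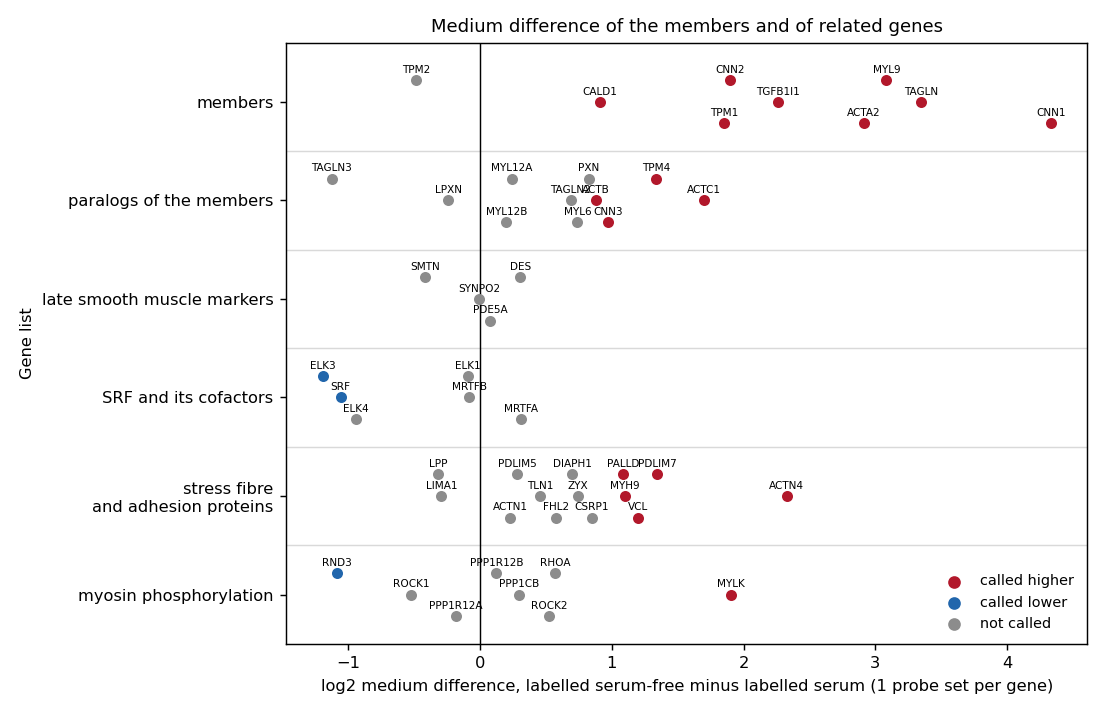
Log2 medium difference (labelled serum-free minus labelled serum) of the fitted members and of related genes, 1 probe set per gene, with red called higher, blue called lower and grey not called at a limma adjusted p of 0.05. Of 9 member genes all but TPM2 are called higher, and SRF and ELK3 are lower. The fitted late smooth muscle markers, all but SMTN dim, lie between -0.41 and 0.31.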

How the data were processed

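The deposited values are 1 signal intensity per probe set and array on a linear scale, which the submitters' processing notes credit to MAS5 as run by the authors. No label used here names a version. The values show 1 scaling factor per array, with means after trimming 2% at each end between 99.63 and 99.65. With 1 array per condition, the number of arrays limits the precision.

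Gene names came from GEO's platform annotation. Of 41091 probe sets with 1 gene, 99.9% had the symbol brought up to date by Entrez identifier; 1801 had several genes and 11721 stay unnamed. Log2 signals with the floor were fitted with limma (lmFit, eBayes) on medium and DACH1 state, 1 residual degree of freedom, and adjusted by Benjamini-Hochberg over all fitted probe sets. On simulated data over 28654 probe sets, the medium term found 37 of 67 changed 2-fold, all 66 changed 4-fold and 8 of 28454 unchanged. The simulated probe sets all had the same spread, had no floor and were mostly unchanged, unlike the real ones. These counts therefore do not measure how reliable the calls above are. Folds between 2 arrays were counted at 2-fold without a test, and are bounds where 1 array is under the floor.

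The members, lists and alternatives were chosen with earlier results of these data known. Named genes were the members, up to 4 per list with the largest medium difference, and direct paralogs. Alternatives tried, 9 in all, were a pseudocount in place of the floor, no floor, quantile normalization, a floor of 50 with arrays at 100, no filter, all arrays above the median, a trend in the variance prior, 1 probe set per gene, and a fit without the _x_at and _s_at probe sets, which can bind several transcripts. Tools were limma 3.58.1 in R 4.3.3, with matplotlib 3.10.9, numpy 2.4.6 and pandas 2.3.3 in Python 3.11.15.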

Additional observations from a re-analysis of the deposited data

Results flagged for a closer look

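These probe sets moved in opposite directions under the same contrast, in single arrays, so the difference between the directions was not tested. Values are log2 differences. For DACH1 induction, labelled serum-free first and labelled serum second, CNN1 203951_at had -0.53 and 0.25, and TAGLN 205547_s_at had -0.29 and 0.35. MYL9 244149_at had 1.29 and -0.13, from signals between 13.6 and 33.2. TPM1 had -0.13 and 0.12 (210986_s_at), -0.22 and 0.15 (210987_x_at), and -0.21 and 0.15 (206116_s_at). TPM2 204083_s_at had 0.04 and -1.08. CALD1 had -0.34 and 0.10 (215199_at), -0.34 and 0.09 (243084_at), -0.01 and 0.05 (235834_at), and 0.64 and -0.45 (214880_x_at).

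For the medium, DACH1-induced cells first and DACH1-silenced cells second, MYL9 244149_at had 0.70 and -0.73, TPM2 204083_s_at 0.08 and -1.04, and CALD1 214880_x_at 0.99 and -0.10.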

How the results depend on the processing

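All folds rest on 1 array per condition, and low MAS5 signals are noisy on the log scale. No paired analysis was possible because each condition has 1 array, so the groups share fewer than 2 replicate numbers, although the reported fit already takes the medium difference within each DACH1 state. The probe sets called higher by medium numbered 4669 and lower 3472. They came to 2668 and 1760 with no floor, 0 and 0 with no filter on low signals, 1862 and 1534 with 1 probe set per gene, and 2853 and 2301 without _x_at and _s_at probe sets, the last 2 having fewer to test. For the members, the 18 calls were 17 with quantile normalization (and 1 lower, ACTG2 202274_at, at -1.06 and an adjusted p of 0.0427 in limma, which did not enter the reported fit), 16 with no floor, 20 with the pseudocount or with all arrays above the median, 21 with the floor of 50, 22 with the trend, 0 with no filter, and 8 in each of the fits on fewer probe sets. With no filter the log2 differences of the 18 were the same, while their standard errors and adjusted p moved. The SE fell for some, as from 0.21 to 0.041 for TAGLN 1555724_s_at. It rose for others, as from 0.27 to 0.33 for CNN1. The cause was not tested. In the DACH1 term, 1 probe set, that of DACH1 itself, was called higher with the pseudocount, with all arrays above the median and with the trend, and 0 members under any of the 9 alternatives.

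In the pairs of arrays, members at least 2-fold higher by medium fell to 7 in induced and 7 in silenced cells with 1 probe set per gene, and to 6 and 7 without _x_at and _s_at probe sets. Members lower in induced cells were 1 with quantile normalization, no floor or the pseudocount, and lower in silenced cells 0 with the pseudocount and 1 with the floor of 50, all arrays above the median or without _x_at and _s_at. For DACH1, members higher labelled serum-free were 0 with the pseudocount, the floor of 50, all arrays above the median and 1 probe set per gene. Members lower labelled serum were 3 with no floor and 1 without _x_at and _s_at. A difference of differences of at least 1 was found for 1 member with the pseudocount, the floor of 50, 1 probe set per gene or without _x_at and _s_at, and for 2 with all arrays above the median (4 with no floor).

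Signs turned for small estimates only. With quantile normalization the medium difference of PDE5A was -0.056, and DACH1 differences were 0.040 for TPM1 210986_s_at, 0.000253 for TPM1 210987_x_at, 0.0148 for RHOA and -0.00612 for PPP1R12A. With the pseudocount the medium difference of MYL9 244149_at was 0.0215 and the DACH1 difference of TAGLN 205547_s_at -0.0203, which was -0.14 with the floor of 50. TPM2 was called in none of the fits.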

Other observations

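Among the related genes, 3 are given by DACH1 state, each with the largest DACH1 estimate of the fitted genes in its list. None passed in the DACH1 term (limma adjusted p 0.918 for ACTN4, 0.895 for PXN and 0.834 for DES). In the list of stress fibre and adhesion genes, ACTN4 read 2362 on the induced and 2502 on the silenced array labelled serum-free, and 867.3 and 271.1 on those labelled serum. The paxillin gene PXN, a relative of TGFB1I1, read 429.6 on the induced and 413.2 on the silenced array labelled serum-free, and 443.2 and 127.8 labelled serum. DES, the muscle intermediate filament gene, read 29.8 induced and 3.3 silenced labelled serum-free, and 19.5 and 1.9 labelled serum. It was higher in 2 of 2 induced arrays, with an unadjusted p of 0.00599 and an adjusted p of 0.834 in limma. Both silenced readings lie under the floor of 10.9 and were set to it in the fit. Neither induced reading was above the 20.1 to 32.8 read for CDKN2A, so this difference of DES is uncertain.

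Of the pericyte and fibroblast markers, named after their values were seen, the small proteoglycan genes went apart by medium. LUM read 1707 and 1897 labelled serum-free, against 439.1 and 920.1 labelled serum, and DCN read 73.7 and 72.5, against 485.3 and 1349.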
